A study of Mus musculus with 4 samples.

Results

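*Dusp1*, *Ier2*, *Gadd45g*, *Myc* and *Csrnp1* are immediate early genes that lie outside the AP-1, Egr and Nr4a families. Their H3S10ph peaks were described in mouse gastrocnemius muscle, stimulated and unstimulated. The 5 genes, of 21938 protein-coding genes in the annotation, were chosen by name with earlier results of these peak lists known, in particular which lists held a peak on the gene. The presence and the extent of peaks on the gene bodies were thus selected on these same values, and they are given below as a description with no test. A peak was counted when it overlapped a gene body, from the annotated start of the gene to its end, or the 20 kb on either side of it, and bodies and flanks are reported apart. The 5 windows held 26 peaks of 93418 in the 4 lists, 10 of them on gene bodies and 16 in the flanks.

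ChIP-seq with an antibody against histone 3 phosphorylated at serine 10 was performed on chromatin of whole gastrocnemius muscle from male C57BL/6 mice aged 5 months, under xylazine and Zoletil anaesthesia. The stimulated muscles completed 50 eccentric contractions, in which the muscle is lengthened while it contracts, each evoked by 600 ms of tetanic stimulation at 100 Hz and spaced 30 s apart. The unstimulated muscles were the contralateral ones, from the other leg, and all muscles were collected immediately after the last contraction. For stimulation, wires were implanted beside the sciatic nerve and the common peroneal nerve was cut. The paper describes no sham surgery of the other leg, so surgery and contraction cannot be told apart here. There were 2 samples per condition, each pooled from 6 mice, and 1 list of broad peaks was deposited for each sample. Every nucleus of the tissue contributes to such a pool, so more cells with the mark and more mark per cell cannot be told apart. With 2 lists against 2, an exact permutation test cannot give a two-sided p below 0.333.

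Immediate early genes are transcribed within minutes of a stimulus and need no new protein synthesis to be switched on. Phosphorylation of serine 10 on the tail of histone 3 is laid down at such genes by kinases at the end of the MAP kinase cascades, and it is associated with the opening of their chromatin. The 5 genes stand at different points of that response. *Dusp1* encodes a phosphatase that removes phosphate from p38, JNK and ERK and thereby ends MAP kinase signalling. *Gadd45g* encodes a small stress-induced protein that binds and activates a kinase upstream of p38 and JNK. *Ier2*, *Csrnp1* and *Myc* encode nuclear proteins that act on transcription, *Myc* being the classical growth-associated transcription factor.

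The 4 lists differed in length and make-up. The unstimulated lists held 9094 peaks in replicate 1 and 32740 in replicate 2, and the stimulated lists held 10901 and 40683. Unstimulated replicate 1 stood apart from the other 3, with 522 peaks on chromosome X against 16 to 19 and a median GC content of its peaks of 38.0% against 43.9% to 44.5%. The listed −log10 p of the peaks reached down to about 2 in all lists, below the value of 3 given as the cutoff of the peak calling. Whether the cutoff was applied to this listed value of a broad peak is not stated. A q-value is a p-value adjusted over the genome. The number of peaks with a q-value of at most 0.05 was between 14 and 29 per list. No read numbers are part of the lists, so the depth is unknown, and a gene without a peak is a gene without a call rather than one without the mark. Of 10 genes of fast muscle fibres, 3 and 6 held a body peak in the unstimulated lists and 7 and 6 in the stimulated lists. Of 7 genes of vessel, immune, connective tissue and satellite cells, 0 and 3 did so in the unstimulated lists and 1 and 6 in the stimulated lists. Over all protein-coding genes the shares were 11.9% and 31.2% in the unstimulated lists and 16.0% and 42.3% in the stimulated lists. The 7 genes are each longer than 15 kb, and long genes weigh heavily in such counts. The part of other cells in the peaks described here was not tested.

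Peaks on the bodies of *Dusp1*, *Gadd45g* and *Ier2* were called in both stimulated lists and, with the gene models of RefSeq, in no unstimulated list. The RefSeq models were added after the data were seen. On the longer GENCODE body of *Dusp1* a peak was also called in unstimulated replicate 2. *Csrnp1* held a body peak in stimulated replicate 2 alone, and *Myc* held none in any list. On the RefSeq models the stimulated peaks covered 42.7% and 98.6% of *Dusp1*, 94.6% and 79.7% of *Gadd45g* and 47.2% and 60.5% of *Ier2*, where no unstimulated peak covered a base of them. None of these peaks reached a q-value under 0.05, the lowest among the peaks on gene bodies being 0.629.

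The following stretches of 150 bases lie under the peaks of both stimulated lists, at the centre of the coding span of the longest stretch shared by both, and they are shown because they are the DNA called in both samples. They are read in the direction of the gene from GRCm38, the assembly of mm10, with each CpG dinucleotide in capitals. The *Dusp1* stretch at chr17:26507904-26508053 on the minus strand spans the end of exon 1 and the start of intron 1 and holds 14 CpGs. The *Gadd45g* stretch at chr13:51847434-51847583 on the plus strand runs from the end of exon 2 across intron 2 into exon 3 and holds 9 CpGs. The *Ier2* stretch at chr8:84662095-84662244 on the minus strand lies in the coding part of its single exon and holds 16 CpGs.
Dusp1: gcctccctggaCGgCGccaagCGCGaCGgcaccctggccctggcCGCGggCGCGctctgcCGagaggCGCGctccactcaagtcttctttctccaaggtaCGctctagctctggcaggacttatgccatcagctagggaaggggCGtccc
Gadd45g: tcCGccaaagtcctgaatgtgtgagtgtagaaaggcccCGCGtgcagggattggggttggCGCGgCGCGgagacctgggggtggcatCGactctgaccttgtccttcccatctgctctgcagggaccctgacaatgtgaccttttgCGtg
Ier2: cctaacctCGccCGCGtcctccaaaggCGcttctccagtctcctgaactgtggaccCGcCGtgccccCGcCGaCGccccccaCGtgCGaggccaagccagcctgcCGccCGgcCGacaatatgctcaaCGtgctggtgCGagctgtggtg

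*Dusp1* (chromosome 17, minus strand) is annotated in 2 ways that matter here. RefSeq places it at 26505591 to 26508472, a gene of 2882 bp, while the GENCODE M21 record runs on to 26562128 through long alternative transcripts that begin far upstream and is 56539 bp long. On the RefSeq body, unstimulated replicates 1 and 2 held no peak. Stimulated replicate 1 held a peak of 1201 bp at 26507634 to 26508834, which began 315 bp before the start site of the main transcript and ended 885 bp after it, over exons 1 and 2 of 4. A second peak of that list, 392 bp wide at 26506084 to 26506475, lay on exon 4, the last exon. Stimulated replicate 2 held a single peak of 3216 bp at 26505217 to 26508432, which began 87 bp after the start site, covered parts of all 4 exons and ran 373 bp past the end of the gene. Both lists therefore marked the first and the last exon, and 1191 bp were common to them in stretches of 392 and 799 bp. In stimulated replicate 1 the peaks covered 52.3% of the exons and 25.2% of the introns of the main transcript, and in stimulated replicate 2 they covered 95.6% and 100% of them.

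The fold enrichment of a peak, its signal over the local background, was used only to rank it within its own list, with rank 1 for the highest fold. The peaks on the RefSeq body of *Dusp1* had folds of 2.54 and 2.54 in stimulated replicate 1, ranks 914 and 949 of 10901, and a fold of 2.59 in stimulated replicate 2, rank 365 of 40683. These ranks fall within the top 8.38%, 8.71% and 0.897% of the lists. All 3 had a −log10 p above 3, at 3.35, 3.57 and 3.58, and q-values of 0.981, 0.715 and 0.683. Over the long GENCODE body the picture changed, because an unstimulated peak fell in it. Unstimulated replicate 2 held a peak of 934 bp at 26526985 to 26527918, whose nearer edge was 18466 bp before the main start site, with rank 3993 of 32740. Stimulated replicate 2 held another small peak there, of 461 bp, at 6653 bp before the main start site. On that body the covered shares were 0%, 1.65%, 2.82% and 5.84% in the order unstimulated replicates 1 and 2 and stimulated replicates 1 and 2.

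*Gadd45g* (chromosome 13, plus strand, 51846678 to 51848468, 1791 bp) held 1 body peak in each stimulated list, of which that of replicate 2 alone had a −log10 p of at least 3. Neither unstimulated list held a peak in its whole window of gene and flanks. Stimulated replicate 1 held a peak of 2131 bp at 51846772 to 51848902, from 94 bp after the start site to 434 bp past the end of the gene, over all 4 exons. Stimulated replicate 2 held a peak of 2234 bp at 51847041 to 51849274, from 363 bp after the start site to 806 bp past the end, over exons 2 to 4. The common stretch measured 1862 bp, and the GENCODE body was covered by 94.8% and 79.7%. The ranks were far apart, however, with rank 3518 of 10901 (fold 2.33, top 32.3%) in stimulated replicate 1 and rank 175 of 40683 (fold 2.70, top 0.430%) in stimulated replicate 2. The −log10 p was 2.89 in the first and 3.73 in the second, with q-values of 1 and 0.629.

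*Ier2* (chromosome 8, minus strand, 84661331 to 84662852, 1522 bp) has a single exon. Its stimulated peaks began at nearly the same place, 594 bp after the start site in replicate 1 and 601 bp after it in replicate 2. The first of them, at 84661541 to 84662258, was 718 bp wide and ended 210 bp before the end of the gene. The peak of replicate 2 was 2242 bp wide, at 84660010 to 84662251, and ran 1321 bp past the end. The first part of the exon thus lay under no peak in any list, and 711 bp were shared. Stimulated replicate 2 also held a separate peak of 1299 bp that ended 829 bp before the start site, at 84663682 to 84664980. The stimulated body peaks had ranks 4475 of 10901 (fold 2.30, top 41.1%) and 4636 of 40683 (fold 2.28, top 11.4%). Both had a −log10 p below 3, at 2.84 and 2.64.

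*Csrnp1* (chromosome 9, minus strand, 119971163 to 119984658 by GENCODE) encodes a nuclear protein rich in cysteine and serine. Its body was free of peaks in both unstimulated lists and in stimulated replicate 1. Stimulated replicate 2 held a peak of 634 bp at 119974132 to 119974765, on an inner coding exon and the introns beside it, which covered 4.70% of the body. Its fold of 2.01 was the commonest of that list, shared by 8179 peaks (20.1%), its −log10 p was 2.03 and its rank was 31585 of 40683. The stretch also lies within the long GENCODE record of *Cx3cr1*, a chemokine receptor gene of immune cells, so the peak cannot be assigned to 1 gene by position. For *Myc* (chromosome 15, plus strand, 61985391 to 61990374, 4984 bp) the covered share was 0% in all 4 lists. The nearest peaks to it lay 9385 bp before the gene in unstimulated replicate 2 and 13532 bp after it in stimulated replicate 2, with none inside the window in the other lists.

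**Figure D1:**
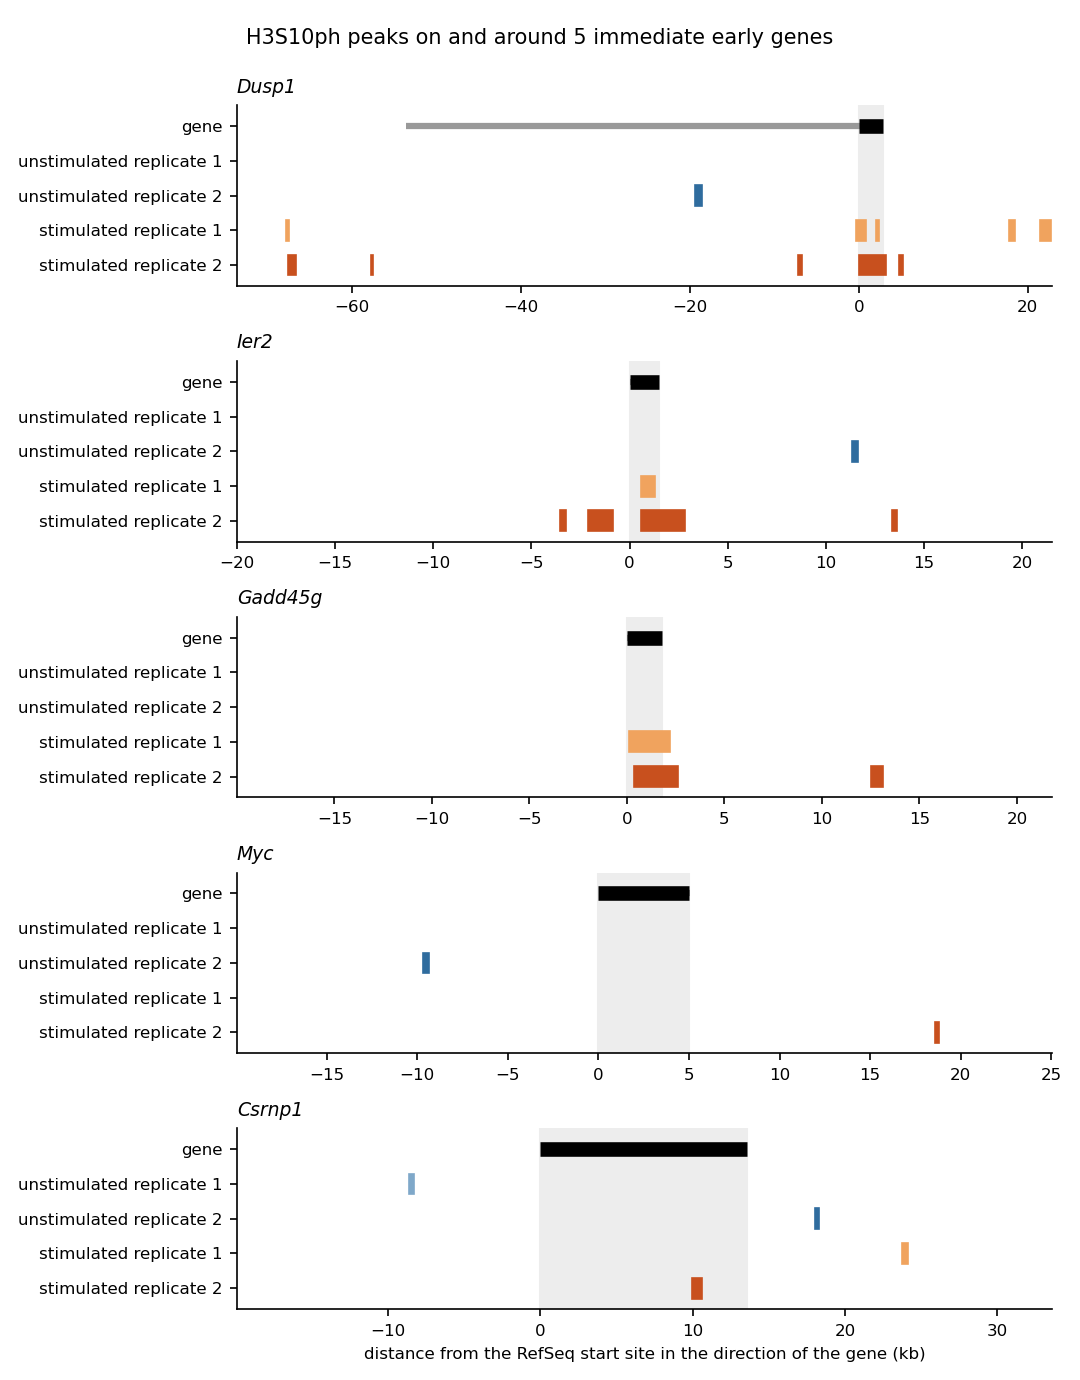
Peaks of the 4 lists on and around each gene, with the distance from the RefSeq start site in kb along the horizontal axis, in the direction of the gene, and 1 row per list. The black bar and the grey band mark the RefSeq body and the thin grey bar the rest of the GENCODE body. Coloured bars are peaks, and *Dusp1*, *Ier2* and *Gadd45g* carry them on the RefSeq body in both stimulated rows and in no unstimulated row.

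Over the 5 genes, the number with a peak on the GENCODE body was 0 and 1 in the unstimulated lists and 3 and 4 in the stimulated lists, or 0.50 ± 0.71 against 3.50 ± 0.71 (mean ± SD, n = 2 lists). The same counts with RefSeq bodies were 0 and 0 against 3 and 4. Over all protein-coding genes, 11.9% and 31.2% had a body peak in the unstimulated lists and 16.0% and 42.3% in the stimulated lists, so the longer lists reached more genes in both conditions. Long genes weigh heavily in those shares. Among genes with a RefSeq body of 1 to 15 kb, a class that includes all 5 members, the shares were 1.49%, 9.26%, 4.03% and 19.8% in the same order.

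A body peak in both stimulated lists was held by 3 of the 5 genes, against 12.3% of all protein-coding genes. Such a peak in both of them, with none in the unstimulated lists, was held by 2 of the 5, *Gadd45g* and *Ier2*, against 2.73% of all genes, or 1.00% of those with a GENCODE body of 1 to 15 kb. With RefSeq bodies, an alternative chosen after the data were seen, *Dusp1* joined them, which gave 3 of 5 against 2.79% of all genes and 1.03% of those of 1 to 15 kb. With only peaks of a −log10 p of at least 3, the pattern was held by 1 of the 5, *Dusp1*, and by 0.315% of all genes, since neither *Ier2* peak and only the second *Gadd45g* peak reached that value. The opposite pattern, both unstimulated lists and neither stimulated list, was found in 0 of the 5 and in 0.688% of all genes. Since the genes were picked with these patterns known, nothing is read from the gap between the counts and the background.

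The covered share over the 5 GENCODE bodies averaged 0.17% ± 0.23 in the unstimulated lists and 29.6% ± 0.85 in the stimulated lists (mean ± SD, n = 2 lists). With RefSeq bodies it averaged 0% in both unstimulated lists and 42.8% ± 8.34 in the stimulated lists, at 36.9% in replicate 1 and 48.7% in replicate 2. Over all protein-coding genes the mean covered share of the GENCODE body was 0.166% and 0.738% in the unstimulated lists and 0.330% and 1.65% in the stimulated lists. At least 50% of the RefSeq body lay under a peak in both stimulated lists for *Gadd45g* alone among the 5, against 0.0366% of all genes, which is 8 genes. The other 7 were *Egr1*, *Fos*, *Jun*, *Acta1*, *Tcap*, *Xirp1* and the predicted gene *Gm52481*, named here after their values were seen. Of these 8, *Gadd45g* and *Jun* had no base covered in either unstimulated list.

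**Figure D2:**
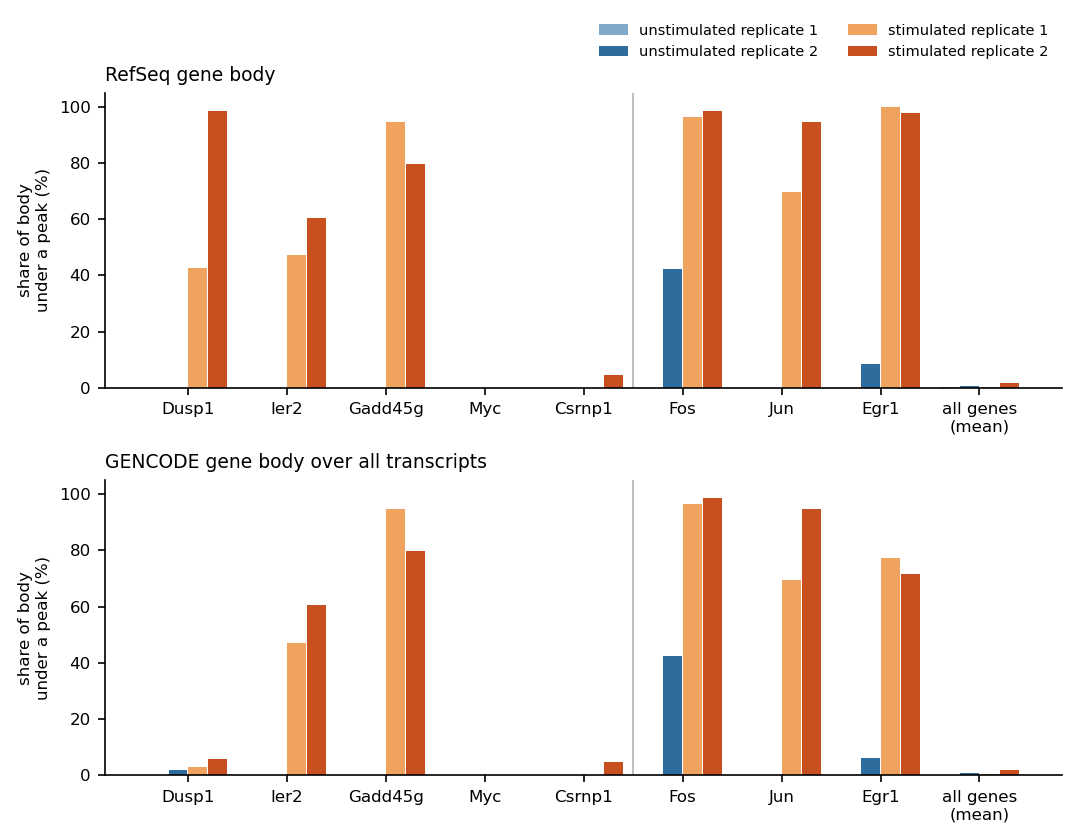
Share of the gene body under a peak, in percent, for the 5 genes, for *Fos*, *Jun* and *Egr1*, and as the mean over all protein-coding genes, with 1 bar per list. RefSeq bodies are in the upper panel and GENCODE bodies over all transcripts in the lower one, where the bars of *Dusp1* drop from 42.7% and 98.6% to 2.82% and 5.84%.

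*Fos*, *Jun* and *Egr1*, transcription factor genes of the same immediate early class that the study singles out, are set beside the 5 genes. The RefSeq body of *Fos* was covered by 96.4% and 98.7% in the stimulated lists, with ranks 3 of 10901 and 9 of 40683, and by 42.5% in unstimulated replicate 2. *Jun* was covered by 69.7% and 94.8% in the stimulated lists only, with ranks 2524 and 33. *Egr1* was covered by 100% and 97.9%, with ranks 563 and 99, and by 8.40% in unstimulated replicate 2. In stimulated replicate 2 the best body peaks of *Gadd45g* and *Dusp1* (ranks 175 and 365) stood below those of all 3 genes. In stimulated replicate 1 the best *Dusp1* peak (rank 914) stood above that of *Jun*, while those of *Gadd45g* (3518) and *Ier2* (4475) stood below it. *Dusp1*, *Gadd45g* and *Ier2* had no base of their RefSeq bodies covered in unstimulated replicate 2, the list in which *Fos* and *Egr1* were called.

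**Figure D3:**
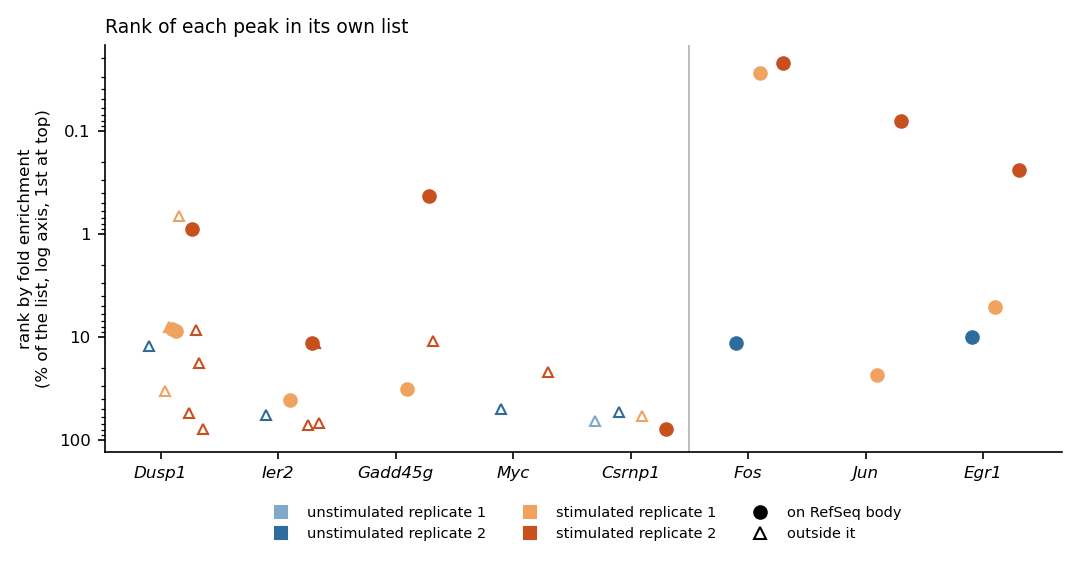
Rank by fold enrichment of every peak in the windows of the 5 genes, and of the body peaks of *Fos*, *Jun* and *Egr1*, as a percent of the list on a log axis with the highest fold at the top. Filled circles are peaks on the RefSeq body and open triangles peaks outside it. Ranks on the RefSeq bodies of the 5 genes ran from the top 0.430% (*Gadd45g*, stimulated replicate 2) to 77.6% (*Csrnp1*, stimulated replicate 2), and those of *Fos* in the stimulated lists lay at 0.0275% and 0.0221%.

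Some of the stimulated body peaks were wide for their lists and others were of ordinary width. The median peak was 380 and 418 bp wide in the unstimulated lists and 360 and 457 bp in the stimulated lists. By width the *Gadd45g* peaks ranked 49 of 10901 and 144 of 40683, the *Dusp1* peak of replicate 2 ranked 33 and the *Ier2* peak of replicate 2 ranked 141, all within the widest 0.450% of their lists. Peaks of at least 2000 bp made up 0.587% and 0.610% of the stimulated lists. In replicate 1 the larger *Dusp1* peak (rank 311 by width) and the *Ier2* peak (rank 2764) were narrower than their counterparts in replicate 2. The peak on the last exon of *Dusp1* in replicate 1 (392 bp), the one on its long GENCODE body in replicate 2 (461 bp) and the *Csrnp1* peak (634 bp) ranked at 47.5%, 49.7% and 36.5% of their lists by width. None of the 5 peaks of the unstimulated lists in the windows was wider than 934 bp.

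**Figure D4:**
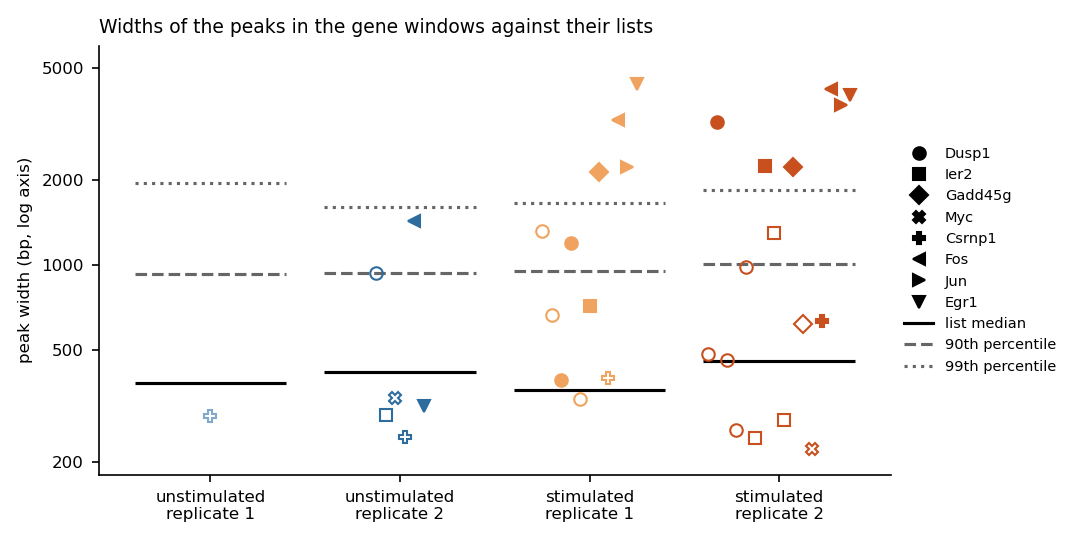
Width in bp, on a log axis, of each peak in the windows of the 5 genes and on the bodies of *Fos*, *Jun* and *Egr1*, by list, with filled symbols for peaks on the RefSeq body. Lines mark the median, the 90th and the 99th percentile of all widths in the list. *Gadd45g* in both stimulated lists, and *Dusp1* and *Ier2* in stimulated replicate 2, lie above the 99th percentile.

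The flanks held peaks in both conditions. Unstimulated replicates 1 and 2 held 1 and 3 flank peaks, at 1 and 3 of the 5 genes, and stimulated replicates 1 and 2 held 4 and 8, at 2 and 4 of them. The number of genes with a flank peak was 2 ± 1.41 and 3 ± 1.41 (mean ± SD, n = 2 lists), with the longer list of each condition giving the higher count. Within each replicate number it was higher by 1 in the stimulated list, and the number of flank peaks was higher by 3 in replicate 1 and by 5 in replicate 2. On the bodies the number of genes was higher by 3 and 3 and that of peaks by 4 and 4. With peaks of a −log10 p of at least 2.5, the mean excess of genes with a peak was 2.5 in the flanks and 2.5 on the bodies. Over all protein-coding genes, 9.30% and 39.9% had a flank peak in the unstimulated lists and 17.8% and 53.7% in the stimulated lists. Of the 16 flank peaks 15 had a q-value of 1 and 14 a −log10 p under 3. The 20 kb before the genes were covered by 0.292%, 0.338%, 0.335% and 2.83% on average and the 20 kb after them by 0%, 0.540%, 2.82% and 4.06%, each in the order unstimulated replicates 1 and 2 and stimulated replicates 1 and 2. Over all genes the corresponding means were 0.155%, 0.670%, 0.273% and 1.26% before and 0.152%, 0.740%, 0.290% and 1.38% after the gene. These shares count every base under a peak, including the parts of body peaks that ran past the gene. Downstream, such a part measured 434 bp at *Gadd45g* in stimulated replicate 1. In stimulated replicate 2 they measured 373 bp at *Dusp1*, 1321 bp at *Ier2* and 806 bp at *Gadd45g*. The downstream shares of the stimulated lists are thus not those of flank peaks alone.

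A single flank stretch was shared by 2 lists. It measured 110 bp at chromosome 17, 26576000 to 26576109, in both stimulated lists, and it lay on *Ergic1*, which encodes a protein that cycles between the endoplasmic reticulum and the Golgi. In stimulated replicate 1 the peak there had a fold of 2.96 and rank 73 of 10901, a higher rank than any body peak of the 5 genes in that list, and a q-value of 0.554. In stimulated replicate 2 the peak on the same stretch had rank 31585 of 40683. The peak of replicate 2 ended 66608 bp before the main start site of *Dusp1*, and the stretch falls in its window only through the long GENCODE record. Stimulated replicate 2 held another peak on *Ergic1*, of 261 bp. Downstream of *Dusp1*, stimulated replicate 1 held peaks of 663 and 1325 bp at 14948 and 18612 bp past the gene and stimulated replicate 2 held one of 482 bp at 1912 bp past it, on a long intergenic RNA gene.

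The flank peaks of *Csrnp1* differed in place from list to list. Unstimulated replicate 2 and stimulated replicate 1 each held one downstream of it on *Ttc21a*, a neighbouring gene for a tetratricopeptide repeat protein, at 4450 and 10138 bp past the end of *Csrnp1*. Unstimulated replicate 1 held one 8383 bp upstream, its only peak in the windows of the 5 genes, and all 3 lay within the *Cx3cr1* record. Around *Ier2*, downstream peaks were called in unstimulated replicate 2 and in stimulated replicate 2 (9832 and 11840 bp past the gene), and 2 upstream peaks in stimulated replicate 2. *Gadd45g* had 1 flank peak, of 616 bp at 10706 bp past the gene in stimulated replicate 2. At the edge of the windows, the farthest peak inside lay 18612 bp from the *Dusp1* body (stimulated replicate 1, fold 2.33) and the nearest outside 21576 bp from it (stimulated replicate 2, fold 2.06).

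The bodies of the 5 genes were rich in GC and in CpG compared with other genes, a feature of the sequence that the choice of the genes did not use. The RefSeq body had a GC content of 53.1% in *Dusp1*, 60.9% in *Ier2*, 59.9% in *Gadd45g*, 53.2% in *Myc* and 54.0% in *Csrnp1*, against a median of 45.5% over all protein-coding genes. The ratio of observed to expected CpG was 0.537, 0.822, 0.718, 0.668 and 0.358 in the same order, against a median of 0.232. Both medians are over genes of all lengths, and no comparison with genes of like length was made. *Ier2* and *Gadd45g*, with the largest covered shares in stimulated replicate 1, had the highest values of both measures. In stimulated replicate 2, however, the largest share of a RefSeq body was that of *Dusp1* (98.6%), which had the lowest GC content of the 5. *Myc*, with no body peak, had a higher CpG ratio than *Dusp1*. The GC content of the peaks on these bodies ranged from near the median of their list to its upper end. That of *Gadd45g* was 59.3% and 57.6%, that of *Ier2* 63.9% and 55.8%, and that of the *Dusp1* peak on the start site in stimulated replicate 1 was 65.5%, at or above 99.3% of that list. The *Dusp1* peaks of stimulated replicate 2 had 52.7% on the RefSeq body and 45.6% on the long GENCODE body, and the *Csrnp1* peak had 51.4%, in a list with a median of 44.5%. The part of GC content in the calls was not tested, and unstimulated replicate 1, with no body peak on any of the 5 genes, is the list whose peaks were poorest in GC.

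Promoters were taken from the RefSeq table on GRCm38.p6, which spans 250 bases before to 50 after each start and held 3 of the 5 genes. *Ier2* and *Myc* had no entry. The 250 bases before the start are shown for *Dusp1* and *Gadd45g*, because one of their stimulated peaks reached back over the *Dusp1* start site and the others stopped short of the promoter. They are read in the direction of the gene, *Dusp1* at chr17:26508473-26508722 on the minus strand and *Gadd45g* at chr13:51846425-51846674 on the plus strand. Capitals mark matches on either strand to 7 motifs. The CArG box, which SRF binds, was searched by its standard pattern. The cAMP response element was searched as TGACGTCA and also in a short form, TGACG. Sites for AP-1, the dimer of Fos and Jun proteins, were searched as TGANTCA. The TATA box that places the polymerase was written TATAAA. For the GC box, bound by Sp1, the letters were GGGCGG. For the E-box, bound by Myc among other factors, they were CACGTG. The short form is contained in the full one.
Dusp1: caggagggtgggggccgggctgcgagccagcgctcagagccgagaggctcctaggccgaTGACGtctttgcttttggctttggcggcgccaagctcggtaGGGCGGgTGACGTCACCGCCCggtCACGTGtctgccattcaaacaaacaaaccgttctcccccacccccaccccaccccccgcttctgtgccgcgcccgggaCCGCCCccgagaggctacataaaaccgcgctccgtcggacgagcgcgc
Gadd45g: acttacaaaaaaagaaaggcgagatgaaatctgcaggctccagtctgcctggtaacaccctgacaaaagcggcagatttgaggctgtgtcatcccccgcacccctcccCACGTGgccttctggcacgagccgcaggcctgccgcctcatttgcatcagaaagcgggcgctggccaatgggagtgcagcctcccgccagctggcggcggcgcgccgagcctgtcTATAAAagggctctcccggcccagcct

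Distances of motifs are from the RefSeq start, at 26508472 for *Dusp1*. The distances of its peaks above were taken from the start of the main GENCODE transcript, at 26508519. In the *Dusp1* promoter a full cAMP response element began 143 bases before the RefSeq start, flanked by GC boxes at 150 and 135 bases. That promoter also held an E-box at 126 bases, another short element at 191 bases and another GC box at 48 bases. The *Gadd45g* promoter held an E-box that began 142 bases before the start and a TATAAA at 27 bases. Of 32851 promoters of the same length, 1.79% held the full element, 20.8% the short form, 35.7% a GC box, 7.15% an E-box and 13.6% a TATAAA. A CArG box, found in 1.63% of promoters, was not among the letters of the *Dusp1*, *Gadd45g* or any of the 4 *Csrnp1* windows. Each of the 4 *Csrnp1* windows held at least 1 short element, one of them held 5 GC boxes, and another held 2 AP-1 sites, a motif of 7.81% of promoters. These matches are strings in the sequence and were not tied to binding of any factor.

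Among 18 paralogs of the 5 genes, 10 held a peak on the RefSeq body in at least 1 list and 8 in none. Per list, 1 and 1 of the 18 held one in the unstimulated lists and 3 and 8 in the stimulated lists. In the same order, 11.9%, 31.2%, 16.0% and 42.3% of all protein-coding genes had a peak on the GENCODE body. Among RefSeq bodies of 1 to 15 kb, a class that some of the paralogs exceed, the shares were 1.49%, 9.26%, 4.03% and 19.8%. Nothing is read from the paralog counts. The only paralog called in both stimulated lists but in no unstimulated one was *Dusp8*, a phosphatase of JNK and p38, with covered shares of 5.76% and 12.2%. On RefSeq bodies 2.79% of all genes held that pattern. *Dusp6*, the phosphatase of cytoplasmic ERK, was covered by 20.4% in stimulated replicate 2 only. *Dusp4*, *Dusp5* and *Dusp7*, which act on ERK, were likewise covered there only, by 7.59%, 2.28% and 9.90%. *Dusp10*, a phosphatase of p38 and JNK, was covered by 3.89% in that list, and *Dusp16*, another JNK phosphatase, by 2.15% there and by 1.16% in unstimulated replicate 1. On its longer GENCODE body *Dusp10* was also covered by 3.73% in unstimulated replicate 2.

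In the other families no paralog was called in both stimulated lists. *Gadd45b*, a stress-induced relative of *Gadd45g*, was covered by 25.8% in stimulated replicate 2, and *Gadd45a* held no peak in any list. *Ier5*, which encodes another nuclear immediate early protein, was covered by 36.9% in stimulated replicate 1 alone, with rank 10465 of 10901. *Ier3* and *Ier5l* held none. *Csrnp3* was covered by 0.19% in unstimulated replicate 2 and 0.126% in stimulated replicate 1, and neither *Csrnp2* nor the paralogs of *Myc*, *Mycn* and *Mycl*, held a peak.

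Of 43 other immediate early genes outside the AP-1, Egr and Nr4a families, 2 and 4 held a peak on the GENCODE body in the unstimulated lists and 5 and 19 in the stimulated lists, and 22 held none in any list. The stimulated counts are 11.6% and 44.2% of the 43, near or below the 16.0% and 42.3% of all protein-coding genes. The 43 are mostly short genes, however, and long genes weigh heavily in the shares of all genes. On RefSeq bodies the counts were also 2 and 4 in the unstimulated lists and 5 and 19 in the stimulated lists. Among genes of 1 to 15 kb, a class that some of the 43 exceed, the shares were 1.49%, 9.26%, 4.03% and 19.8%. The share of the 43 was larger in both stimulated lists and also in unstimulated replicate 1 (4.65%). It was near that of the class in unstimulated replicate 2 (9.30%). These differences were not tested, and the 43 were listed with earlier results of these data known. Calls in both stimulated lists without any in the unstimulated ones were found in 2.73% of all genes. Among those with a GENCODE body of 1 to 15 kb the share was 1.00%. Of the 43 other immediate early genes, 3 held this pattern. They were *Cebpd*, a leucine zipper transcription factor gene, *Klf6*, a zinc finger transcription factor gene, and *Zfp36l1*, whose protein promotes the decay of mRNAs with AU-rich elements. Their RefSeq bodies were covered by 16.9% and 98.1%, by 2.82% and 6.92% and by 25.7% and 10.1% in stimulated replicates 1 and 2. Their best ranks were 6571 and 2090, 629 and 8502, and 1239 and 13322. The list overlaps that of the paralogs in *Dusp2*, *Dusp5*, *Dusp6*, *Gadd45a*, *Gadd45b*, *Ier3* and *Ier5*.

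**Figure D5:**
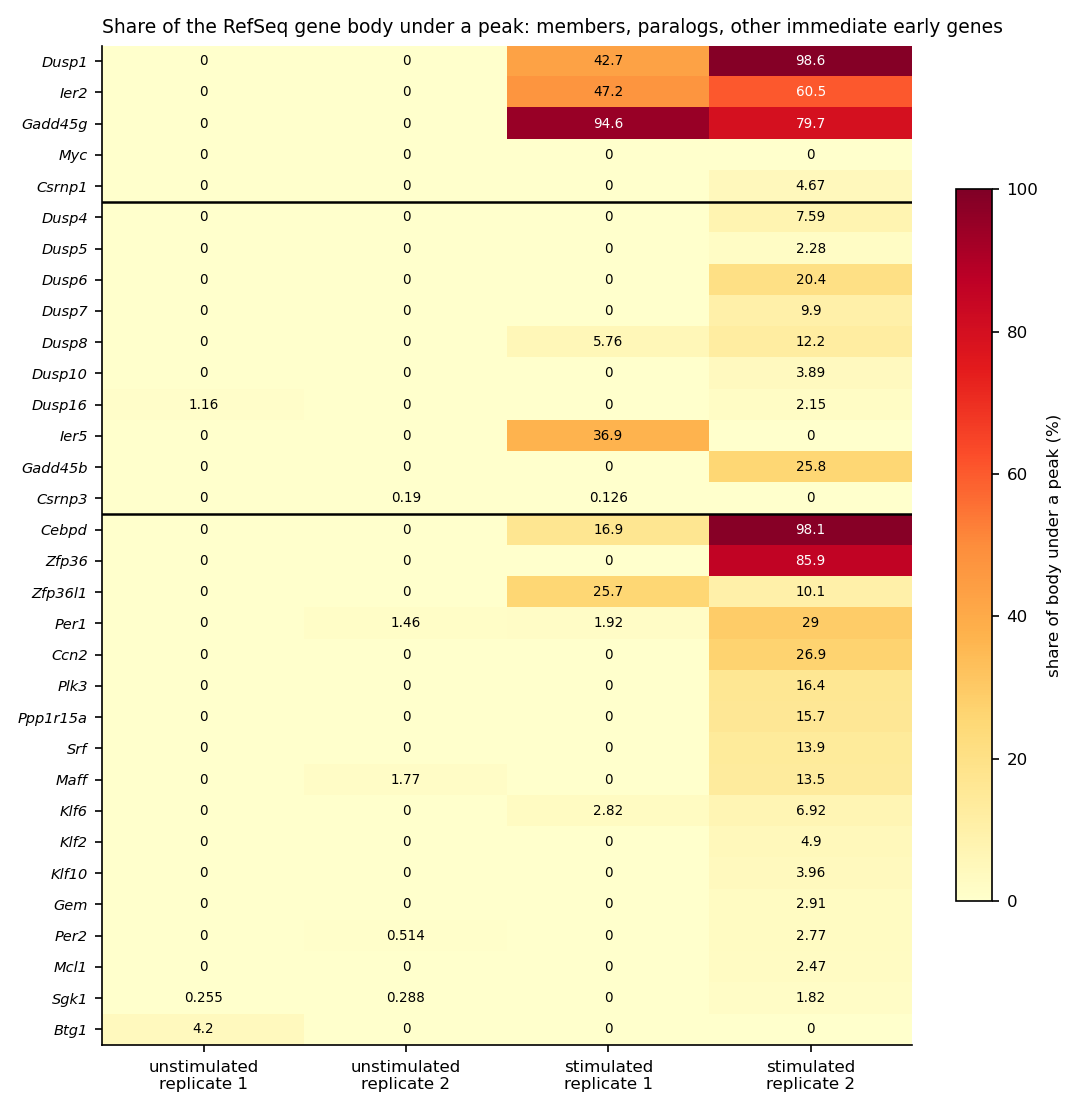
Share of the RefSeq body under a peak, in percent, in each of the 4 lists, for the 5 genes in the upper block, for the 10 paralogs with a peak in any list in the middle block and for 17 further immediate early genes with a peak in any list in the lower block. Cells print the share. *Dusp1*, *Ier2* and *Gadd45g* reach at least 42.7% in both stimulated columns, the lower value of *Cebpd*, the next gene, is 16.9%, and most other genes carry a value in the column of stimulated replicate 2 alone.

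By the 4 covered shares together, the protein-coding genes most like each member were listed as the 2 with the smallest Euclidean distance, in percentage points, with n = 4 lists. For *Gadd45g* on GENCODE bodies they were *Egr1* (distance 20.1) and *Jund* (28.7), an AP-1 gene covered by 66.0% and 79.9% in the stimulated lists and by 0% in the unstimulated lists. For *Ier2* on these bodies they were *Xirp1* (19.2), which encodes an actin-binding protein of striated muscle, and *Nr4a1* (25.2). *Nr4a1*, an orphan nuclear receptor gene, was covered by 23.6% and 51.6% in the stimulated lists. *Xirp1* was also covered by 16.4% in unstimulated replicate 2, unlike *Ier2*. On RefSeq bodies the genes changed to *Jund* (16.8) and *Xirp1* (19.2) for *Ier2*, and to *Egr1* (20.8) and *Jun* (29.2) for *Gadd45g*. *Jund* was covered there by 38.3% and 46.3% in the stimulated lists. For *Dusp1* on the RefSeq body they were *Cebpd* (25.8) and *Jun* (27.2), but on the long GENCODE body they were *Cenpk* (0.0968) and *Tspan15* (0.305), genes with shares under 6% in all lists. *Csrnp1*, whose pattern is a single small peak, had *Arhgef15* and *Fam174a* at 6.41e-05 and 0.00179 from it, and *Myc* was not compared because all its shares were 0.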

How the data were processed

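The authors cross-linked and sonicated chromatin, mapped reads to mm10 (BWA 7.12, SAMtools 2.4.0 and MACS2 2.1.1 in the submitters' processing notes), removed multi-mapping reads, thinned each replicate to the depth of the shallowest and called broad peaks against input DNA, per sample. Each deposited list gives, per peak, a fold enrichment (a ratio to the background) together with −log10 values of p and q (p-value and q-value). The listed −log10 p values reach below the stated cutoff, and whether it was applied to these values is not stated. The deposited score was not used. Gene bodies were those of GENCODE M21 (21938 protein-coding genes on the autosomes, X and Y). RefSeq bodies (21887 genes) were added after the data were seen. An overlap of 1 bp counted. A rank is 1 plus the number of peaks of the list with a higher fold. Computations used Python 3.11.15 and numpy 2.4.6, and overlaps were tested on simulated data. Exons are those of the GENCODE transcript paired with RefSeq that has the longest coding sequence. Named were all members, paralogs with a peak, other immediate early genes called in both stimulated and no unstimulated list, genes under flank peaks, the 2 most alike genes per member, and *Fos*, *Jun* and *Egr1*. Members and lists were chosen with earlier results of these data known, and no test was made. Depth is unknown.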

Additional observations from a re-analysis of the deposited data

How the results depend on the processing

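Of 123 alternative values, 100 stayed within the spread between replicates or within 1.5 times the count, 23 moved further and 0 reversed. Only differences between conditions could be scored as reversed, not counts of called genes, shares of all genes or ranks. The covered share of *Myc*, 0 under every setting, always counted as unmoved. A stricter setting kept only peaks with a listed −log10 p of 3 or more, the value stated as the cutoff. The excess of genes with a body peak in the stimulated lists then fell from 3 to 1.5. That of the covered share fell from 29.4 to 8.76 percentage points. The genes called in both stimulated and no unstimulated list fell from 2 to 1. This left *Dusp1* in place of *Gadd45g* and *Ier2*, whose peaks did not reach that value in both lists. Among the other immediate early genes that count became 0 and among all genes the share became 0.315%. At a −log10 p of at least 2.5, or with 9094 peaks from each list, *Dusp1* (RefSeq body), *Gadd45g* and *Ier2* held their peaks and *Csrnp1* did not, and at 2.5 the excess of genes with a flank peak rose from 1 to 2.5. RefSeq bodies, added after the data were seen, gave a covered share excess of 42.8 points, and 1 kb before the start site gave 19.5 points. Among bodies of 1 to 15 kb the share of all genes was 1.00%. Leaving out 1 list at a time gave 3.35% to 18.4% of all genes (18.4% without stimulated replicate 1, 7.65% without unstimulated replicate 2, 4.96% without stimulated replicate 2), 3 to 15 of the other immediate early genes (15 without stimulated replicate 1) and 2 to 3 of the 5 genes. The flank excess was 0 without unstimulated replicate 1 or stimulated replicate 2 and 2 without either of the other lists. The cause of these shifts was not tested beyond the fewer lists or peaks that each setting keeps. No test was made, paired or unpaired. Muscles were contralateral, but the labels do not say whether equal replicate numbers stand for the same mice. Within replicate numbers the stimulated list had 3 and 3 more genes with a body peak and 1 and 1 more with a flank peak.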
